A study of Homo sapiens with 96 samples.

Results

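WNT signalling genes were followed through neural differentiation and through exposure to 5 compounds. The set comprised 56 genes of the 58434 in the table, chosen by name: all WNT ligands matching the symbol pattern WNT and a number, and listed receptors, secreted regulators, intracellular components and target genes. By role, 19 were ligands, 13 receptors or co-receptors, 3 secreted enhancers (R-spondins), 11 secreted inhibitors, 6 intracellular core components and 4 feedback genes.

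All cells derived from the established human embryonic stem cell line H9. There were 12 groups of 8 libraries of polyadenylated RNA: neural progenitor cells (NPC, day 0), unexposed day 10 co-cultures of neurons and astrocytes (the controls), and 10 exposed day 10 groups. Acrylamide, valproic acid, chlorpyrifos, fluoxetine and methyl mercury were each given at 2 concentrations labelled IC5 and IC20/100, and the labels name no molar concentration. Medium was the solvent of acrylamide and valproic acid. Chlorpyrifos, fluoxetine and methyl mercury were dissolved in dimethyl sulfoxide (DMSO), at 0.25% of the final volume, and the labels do not say whether controls received DMSO. All co-cultures were grown at 3% oxygen in medium with neurotrophic factors, dibutyryl cyclic AMP and laminin, with CNTF in the first week. Each group's 8 libraries are technical replicates from 1 experiment with 1 cell line, so every p-value measures the spread between these libraries only.

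WNT proteins are secreted lipid-modified ligands that bind Frizzled (FZD) receptors. With the co-receptors LRP5 or LRP6 they stabilise beta-catenin (CTNNB1), which enters the nucleus and acts with the TCF and LEF DNA-binding proteins. Other WNT ligands, such as WNT5A, act mainly through routes that do not need beta-catenin. In the developing nervous system the pathway patterns the dorsal neural tube and controls progenitor proliferation, and it is restrained by secreted inhibitors (SFRP and DKK proteins) and by its own targets, such as AXIN2.

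Values are gene counts divided by 1 size factor per library (normalised counts), rounded to 3 significant digits. Libraries held 9.49 to 29.6 M reads (megareads, median 18.9 M), and runs and groups were crossed. Methyl mercury IC20/100 replicate 8 stood apart, with a deposited total of 20.95 M against 18.11 to 18.99 M in the other day 10 libraries. Neuronal markers (10 genes) summed to 68100 to 74100 in NPC and 90300 to 97100 in controls, and markers of dividing cells (7 genes) to 32000 to 36200 in NPC and 12000 to 16100 in controls. The astrocyte label had little support from its 6 markers, which summed to 2760 to 4690 in NPC and 2470 to 3610 in controls. The sum was mostly SLC1A2 (means 2940 in NPC and 2850 in controls). Mean GFAP, the intermediate filament of astrocytes, was 9.70 in NPC and 25.7 in controls. By the test described below, only GFAP of these markers was called higher in controls. S100B (means 74.4 in NPC and 19.4 in controls), AQP4 (21.6 and 5.41) and GJA1 (190 and 134) were called lower. Genes were tested with limma on log2 of the value plus 2, with group and sequencing run as terms, and a gene was called when its p-value, adjusted by the Benjamini-Hochberg method over every gene in the fit, was under 0.05. Fold changes and log2 fold changes below are on that scale, which understates changes of low genes, and ± on a log2 fold change is the standard error.

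Of the 56 genes, 40 reached a value of 10 in at least 8 libraries of the NPC and control fit, and 41 in the fit of the day 10 libraries. The 14 that passed in neither were the ligands WNT1, WNT2, WNT3A, WNT6, WNT8A, WNT10A, WNT11 and WNT16 and the inhibitors DKK2, DKK4, NOTUM, SFRP4, SFRP5 and WIF1. DKK1 passed in the NPC and control fit only, through its NPC libraries, and WNT10B and RSPO3 among the day 10 libraries only. All 13 receptors, all 6 core components and all 4 feedback genes were measured in both fits. Being bulk RNA, the values cannot tell fewer cells of a type apart from less RNA per cell.

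Per kilobase of exon, the most abundant ligand was WNT7B, a ligand that can act through beta-catenin in neural and vascular development. Its mean level was 1550 normalised counts per kilobase in controls and 1430 in NPC. Next among the ligands in controls stood WNT7A at 176, WNT3 at 112 and WNT5A at 87.6 per kilobase. The receptors with the highest control levels were FZD2 at 676, FZD3 at 406, FZD10 at 398 and FZD7 at 377 per kilobase. The co-receptors LRP6 and LRP5 stood at 266 and 221. SFRP2 at 549 and DKK3 at 439 led the secreted inhibitors, and CTNNB1 itself stood at 798. The cultures thus held RNA for a ligand, several receptors, both co-receptors and beta-catenin at day 0 and day 10.

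In controls against NPC, 14 of the 40 tested members rose and 15 fell. Over all 18063 genes tested 33.9% rose and 36.8% fell, so the members changed about as often as genes in general. Their median log2 fold change was -0.01, the same as over all genes. The roles divided unevenly: 5 ligands rose and 1 fell of 10, both tested enhancers rose, and 4 of 5 inhibitors and 4 of 6 core components fell. DKK1 is among these inhibitors, and it passed the filter only through NPC libraries, so its entry into the test fixed its direction. The other inhibitors that fell were SFRP1, SFRP2 and FRZB. Receptors went both ways, 4 up and 5 down of 13. Every call but that of AXIN1, a scaffold of the beta-catenin destruction complex, held in all alternative analyses (AXIN1 log2 fold change -0.16 ± 0.05, adjusted p = 0.0159 by limma, and -0.14, adjusted p = 0.0511, without control replicate 6).

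**Figure D1:**
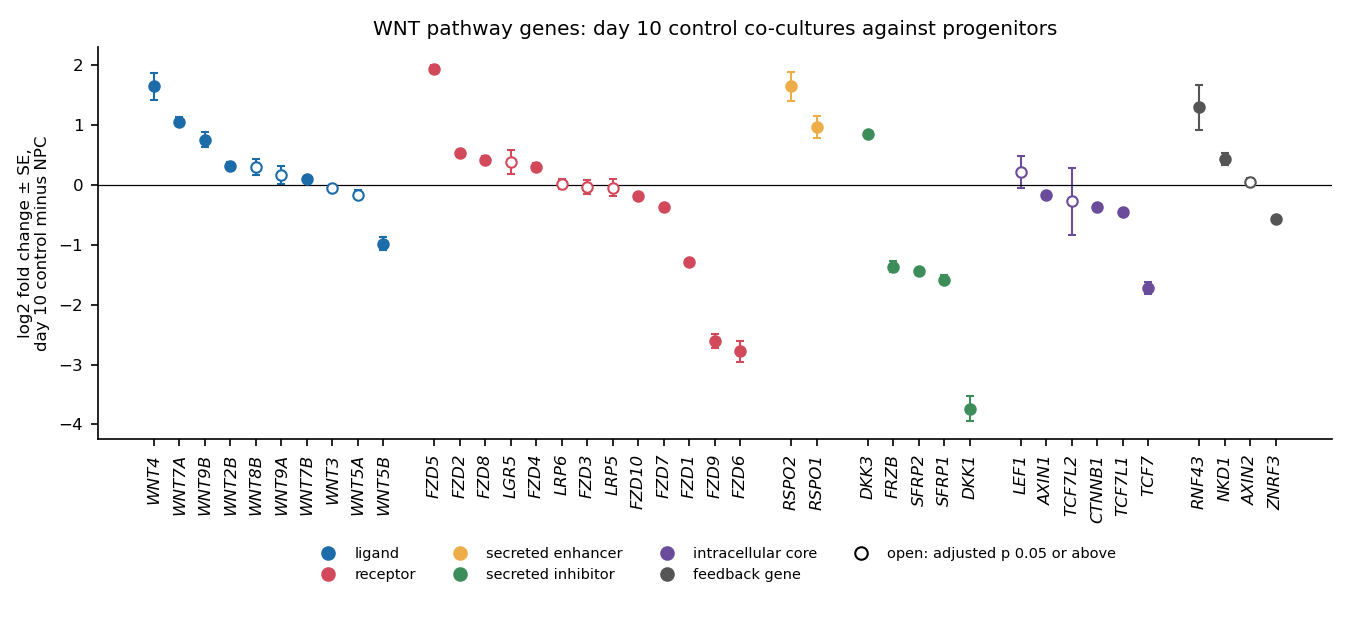
Log2 fold change of each tested member, day 10 controls minus NPC, with standard errors, grouped by role. Points above 0 were higher in controls. FZD5 is the highest of the receptors at 1.94, and FZD6 and FZD9 are the lowest at -2.78 and -2.61.

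Among the ligands, WNT7A rose with differentiation. WNT7A (chromosome 3, 13816258 to 13880121, minus strand, GENCODE 29 on GRCh38) is a close relative of WNT7B and a regulator of synapse formation. Its NPC libraries ranged from 337 to 412 (median 388) and its control libraries from 693 to 920 (median 798). The ranges did not overlap, and the log2 fold change was 1.06 ± 0.07 (limma, adjusted p = 3.58e-08). WNT4, known for roles in kidney and gonad development, rose from a mean of 30.6 ± 13.3 (SD, n = 8) to 98.4 ± 39.8 (limma, adjusted p = 3.82e-05), although the highest NPC library (59.9) exceeded the lowest control library (58.8). WNT9B rose from 56.6 ± 10.1 to 93.4 ± 14.1 (limma, adjusted p = 0.000101). WNT5B fell from 307 ± 53.5 to 153 ± 15.9, with NPC at 226 to 381 and controls at 124 to 172 (limma, log2 fold change -0.98 ± 0.11, adjusted p = 6.94e-06). It was the only ligand of the 10 tested that fell. WNT7B differed by 0.11 on the log2 scale (7210 ± 165 in NPC and 7840 ± 320 in controls), called but with overlapping libraries, while WNT5A, WNT3, WNT8B and WNT9A did not pass.

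Receptors held the largest changes after DKK1. FZD5, a receptor known from eye and hypothalamus development (chromosome 2, 207762586 to 207769563, minus strand), was at 83.9 to 107 in NPC and at 294 to 421 in controls (median 361). All control libraries lay above all NPC libraries, a 3.83-fold rise (limma, log2 fold change 1.94 ± 0.07, adjusted p = 4.00e-10). In the opposite direction, FZD9 (chromosome 7, 73433783 to 73436120, plus strand), a receptor studied in hippocampal development, was at 210 to 267 in NPC (median 221) and at 26.9 to 48.1 in controls (median 33.4). It fell 6.09-fold (limma, log2 fold change -2.61 ± 0.12, adjusted p = 2.17e-09). FZD6, a planar polarity receptor, was at 189 to 271 in NPC and at 17.4 to 51.4 in controls, 6.86-fold lower (limma, log2 fold change -2.78 ± 0.17, adjusted p = 2.37e-08). FZD1 fell from 1170 ± 54.2 to 480 ± 26.6 without overlap (limma, adjusted p = 4.24e-11). The more abundant receptors moved less: FZD2 by 0.54, FZD7 by -0.37 and FZD10 by -0.19 on the log2 scale. LRP5, LRP6, FZD3 and LGR5, the R-spondin receptor that marks stem cells in many epithelia, did not pass.

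Of the 5 secreted inhibitors tested, all but DKK3 fell. DKK1, which blocks the co-receptors LRP5 and LRP6 and is itself a target of the pathway, was at 53.0, 62.1, 18.0, 33.7, 70.6, 49.9, 68.8 and 67.7 in the 8 NPC libraries. In the 8 controls it was at 1.09, 1.10, 0.995, 0.688, 1.78, 3.73, 0.973 and 0.837. The lowest NPC library was above every control library. DKK1 passed the filter only through its NPC libraries, so its entry into the test fixed its direction. The control values rest on 12 reads in all, 1 to 4 per library (exact 95% Poisson interval of the sum 6.20 to 21.0), against 516 reads in NPC (472 to 563). The intervals cover counting error only. The ratio of the mean normalised values was 37.9, against 13.3-fold on the scale of the test (limma, log2 fold change -3.74 ± 0.21, adjusted p = 1.08e-08).

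The DKK1 promoter is shown because DKK1 had the largest change of the tested members in differentiation, in a direction that the filter fixed. Its promoter was also the only one among the members' promoters searched with a match to a TCF/LEF core motif. Of the 56 genes, 37 had an entry in the RefSeq promoter table (GRCh38.p14), with 44 promoters, each 250 bases before to 50 after the start. Genes without an entry, among them AXIN2, LGR5, NKD1, ZNRF3 and NOTUM, were not searched. The motifs searched were CTTTGAT and CTTTGAA on both strands, which do not overlap one another as written. One or the other occurred in 6.86% of all 35116 promoters (2.62% and 4.43% each), and in 1 of 44 member promoters, or 2.27%. The match, in capitals, lies 95 to 89 bases before the DKK1 start. It is a match of letters and shows no binding. The 250 bases before the start, chr10:52314031-52314280, plus strand, read 5′ to 3′:
DKK1: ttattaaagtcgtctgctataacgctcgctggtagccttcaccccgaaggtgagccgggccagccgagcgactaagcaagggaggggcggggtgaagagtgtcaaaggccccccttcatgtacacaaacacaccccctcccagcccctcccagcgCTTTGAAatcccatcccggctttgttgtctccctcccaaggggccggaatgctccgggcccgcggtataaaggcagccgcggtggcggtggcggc

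A pair of abundant Frizzled-related proteins, which bind WNT ligands outside the cell, fell together with DKK1. SFRP2 (chromosome 4, 153780592 to 153789120, minus strand) was at 2870 to 3290 in NPC (median 3030) and 1000 to 1270 in controls (median 1100). The 2.71-fold fall had no overlap (limma, log2 fold change -1.44 ± 0.05, adjusted p = 1.99e-10). SFRP1 was at 895 to 1090 in NPC and 291 to 379 in controls, a fall of 2.99-fold (limma, log2 fold change -1.58 ± 0.07, adjusted p = 1.18e-09). FRZB, also of that family, fell from 71.6 ± 5.95 to 27.2 ± 3.61. DKK3, a divergent Dickkopf protein that does not act on LRP6 as DKK1 does, rose from 1230 ± 54.0 to 2220 ± 91.8, with NPC at 1140 to 1300 and controls at 2050 to 2310 (limma, log2 fold change 0.86 ± 0.03, adjusted p = 6.36e-10). The enhancers RSPO2 and RSPO1, which raise the amount of Frizzled receptor at the membrane, rose from 24.0 ± 10.6 to 74.3 ± 22.4 and from 14.6 to 29.9.

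The nuclear partners of beta-catenin did not move alike. TCF7 (chromosome 5, 134114711 to 134151865, plus strand), a factor whose gene is itself a common target of the pathway, was at 162 to 225 in NPC (median 197) and 46.0 to 72.0 in controls (median 56.9). It fell 3.29-fold without overlap (limma, log2 fold change -1.72 ± 0.10, adjusted p = 1.98e-08). TCF7L1, mainly a repressor, fell by 0.45 and CTNNB1 by 0.37 on the log2 scale, the latter from 12400 ± 364 to 9510 ± 509. LEF1 and TCF7L2 did not pass. AXIN2, often taken as a readout of beta-catenin signalling, was at 720 ± 85.9 in NPC and 747 ± 67.2 in controls and did not pass (log2 fold change 0.05). Of the other feedback genes ZNRF3, a membrane ubiquitin ligase that removes Frizzled receptors, fell by 0.56. NKD1, an intracellular antagonist, rose by 0.44, and RNF43, a relative of ZNRF3, rose at low values that overlapped (3.18 to 30.5 in NPC and 15.9 to 45.8 in controls; limma, adjusted p = 0.00917). The feedback genes therefore gave no common direction between day 0 and day 10.

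Other genes of the pathway, from a separate list of 52, changed in both directions as well, 17 up and 22 down of 47 tested. Over all genes tested 33.9% rose and 36.8% fell. DRAXIN, an axon guidance protein that binds LRP6, rose from 1570 ± 75.7 to 6530 ± 352 (log2 fold change 2.02 ± 0.03). DACT1, an adaptor that binds Dishevelled, rose from 110 to 429. LGR4, an R-spondin receptor, rose from 690 to 2400, and GPC3, a glypican, from 194 to 630. PORCN, the enzyme that adds the lipid to WNT proteins, rose from 149 to 320. The glypican GPC4 fell from 8330 to 3630, and CCND1, which encodes cyclin D1, fell from 5630 to 3700. Markers of other cells moved with these genes. The summed level of 5 neural crest markers (SOX10, FOXD3, TFAP2A, TFAP2B, ERBB3) was 3590 to 4500 in NPC and 6630 to 7550 in controls. Among these 5, only TFAP2B was called higher in controls (means 2870 and 5530), and SOX10 was called lower (44.0 and 14.0). Roof plate or choroid plexus markers (7 genes) were 270 to 308 in NPC, where TTR was at 0 in all libraries, and 740 to 899 in controls. Of these, LMX1A (means 129 and 627), MSX2 and MSX1 were called higher in controls. GDF7 (76.7 and 25.5) and BMP6 (12.8 and 6.47) were called lower. Mesenchymal markers (8 genes) were 3620 to 4830 in NPC and 1670 to 2160 in controls, pluripotency markers (3 genes) 666 to 756 and 218 to 268, and endothelial markers (3 genes) 137 to 387 and 13.1 to 37.9. The pluripotency sum was mostly LIN28A (means 672 in NPC and 187 in controls). POU5F1 was called higher in controls (27.3 and 39.1), and NANOG was not called (18.0 and 19.5). Progenitor markers (8 genes) summed to 97300 to 104000 in NPC and 95100 to 102000 in controls, so their sum did not separate day 0 from day 10. Of these, PAX6, VIM, SLC1A3, SOX2 and HES5 were called higher in controls, and HES1, NES and FABP7 lower. The part of all these markers in the changes of WNT genes was not tested.

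Acrylamide IC5 changed more WNT genes than any other exposure. Against controls, 18 of 41 members rose and 8 fell, where 20.5% of all 20136 genes rose and 21.5% fell. The members' median log2 fold change was 0.21, against -0.01 over all genes. Of 13 receptors 6 rose and 2 fell, of 11 ligands 2 rose and 4 fell, and 4 of 6 core components and 3 of 4 feedback genes rose with none falling. Every exposure shares these 8 controls, so values of different exposures are set side by side and are not independent. The calls of AXIN1, WNT5B and WNT9B did not hold in every alternative, and the other 23 did.

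WNT7B, the main ligand (chromosome 22, 45920362 to 45977129, minus strand), was at 4950 to 5490 after acrylamide IC5 (median 5210) and at 7320 to 8260 in controls (median 7800). Every exposed library was below every control library (limma, log2 fold change -0.59 ± 0.04, adjusted p = 4.70e-21). WNT5A (chromosome 3, 55465715 to 55490539, minus strand) rose, from 454 to 779 in controls (median 677) to 897 to 1370 (median 1040), again without overlap (limma, log2 fold change 0.70 ± 0.09, adjusted p = 1.08e-09). WNT3, a ligand of the beta-catenin branch, fell by 0.36 on the log2 scale, and WNT2B by 0.47. WNT7A did not pass at 814 ± 88.6 against 808 ± 96.9. The 2 related ligands thus differed in whether they were called, and the difference between them was not tested.

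Several genes that had fallen between NPC and controls were higher after acrylamide IC5, and these values share the controls. SFRP1 was at 541 to 626 after exposure (median 605) and 291 to 379 in controls, with NPC at 895 to 1090. The exposed libraries lay between the other groups with no overlap (limma, log2 fold change against controls 0.87 ± 0.06, adjusted p = 1.10e-19). SFRP2 stood at 1660 ± 75.7, against 1120 ± 88.9 in controls (limma, 0.57 ± 0.05, adjusted p = 1.96e-15). TCF7 was at 92.9 to 148 (median 124) against 46.0 to 72.0 (limma, 1.02 ± 0.15, adjusted p = 3.68e-08), FZD9 at 59.4 to 77.6 against 26.9 to 48.1 (limma, 0.87 ± 0.13, adjusted p = 8.86e-08), and FZD1 at 609 ± 25.9 against 480 ± 26.6. For these 5 genes, picked after their values were seen, the mean after acrylamide IC5 was above the controls and below NPC. The order was not general: FZD10, TCF7L1 and AXIN1, also lower in controls than in NPC, averaged 1660, 1550 and 799 after acrylamide IC5, above their NPC means of 1500, 1500 and 745, and FRZB and FZD6 were not called after exposure. FZD5, which had risen with differentiation, was at 517 to 650 (median 579) against 294 to 421 in controls (limma, 0.65 ± 0.07, adjusted p = 2.09e-13), the group furthest from NPC.

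DKK3 fell from 2220 ± 91.8 in controls to 1510 ± 150 (limma, log2 fold change -0.57 ± 0.07, adjusted p = 5.67e-11), and FZD4, the Norrin receptor of retinal vessels, from 165 ± 16.6 to 107 ± 8.54 (limma, -0.63 ± 0.08, adjusted p = 7.27e-11). RSPO2 was lower, at 32.6 to 51.2 against 44.8 to 107, with overlap (limma, -0.65 ± 0.22, adjusted p = 0.0122). Among the feedback genes, AXIN2 (chromosome 17, 65528563 to 65561647, minus strand) was at 1040 to 1130 (median 1070) and at 646 to 842 in controls (median 752). All 8 exposed libraries were above all controls (limma, 0.52 ± 0.07, adjusted p = 1.68e-08). ZNRF3 rose by 0.50 without overlap. NKD1 rose with a wide spread, 888 to 1900 after exposure and 716 to 1030 in controls (limma, 0.62 ± 0.18, adjusted p = 0.00339). TCF7L1 rose by 0.47 and CTNNB1 by 0.13.

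Beyond the 56 genes, 18 of 49 listed pathway genes rose and 14 fell after acrylamide IC5, against 20.5% and 21.5% of all genes. NKD2, a relative of NKD1, fell from 96.6 ± 25.7 to 37.4 ± 13.0 (limma, log2 fold change -1.33 ± 0.23, adjusted p = 1.69e-06). LGR4 rose from 2400 to 3430, and CCND1 fell from 3700 to 2870. Cell type markers moved in the same libraries. Dividing cell markers summed to 19500 to 22700 against 12000 to 16100 in controls, progenitor markers (8 genes) to 74200 to 81500 against 95100 to 102000, the 5 neural crest markers to 5430 to 6030 against 6630 to 7550, and pluripotency markers to 491 to 562 against 218 to 268. The lists were not uniform. Of the progenitor markers VIM, FABP7, SOX2 and HES5 were called lower, and PAX6 and HES1 higher. Of the 5 neural crest markers TFAP2B, ERBB3 and SOX10 were called lower, and FOXD3 higher. Of the 3 pluripotency markers only LIN28A was called. Neuronal markers summed to 86300 to 90700 against 90300 to 97100, with 2 of the 10 called higher and 4 lower. The part of these shifts in the WNT changes was not tested.

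Acrylamide IC20/100 gave no called WNT gene, 0 up and 0 down of 41 by limma, where 0.0497% of all genes rose and 0.00993% fell. At an unadjusted p under 0.05 in limma, 3 of the 41 members differed, against 1324 of all 20136 genes. Of the members, edgeR and DESeq2 also called 0. WNT7B stood at 7700 ± 289 and SFRP1 at a mean of 320, next to 7840 ± 320 and 324 in controls. The direct comparison of the concentrations, IC5 against IC20/100, uses no control library and gave 14 members higher and 8 lower, against 20.0% and 21.1% of all genes. It included SFRP1 (log2 fold change 0.90 ± 0.06), TCF7 (0.88), FZD9 (0.72), WNT5A (0.67), FZD5 (0.60), AXIN2 (0.48), WNT7B (-0.57), DKK3 (-0.58) and RSPO2 (-0.82), all past the threshold in limma. WNT10B, the lowest of the ligands that passed the filter, was called at means of 4.31 and 11.5, and was lost without acrylamide IC20/100 replicate 2 or 5 or IC5 replicate 6 (adjusted p = 0.0586 to 0.0841 by limma).

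**Figure D2:**
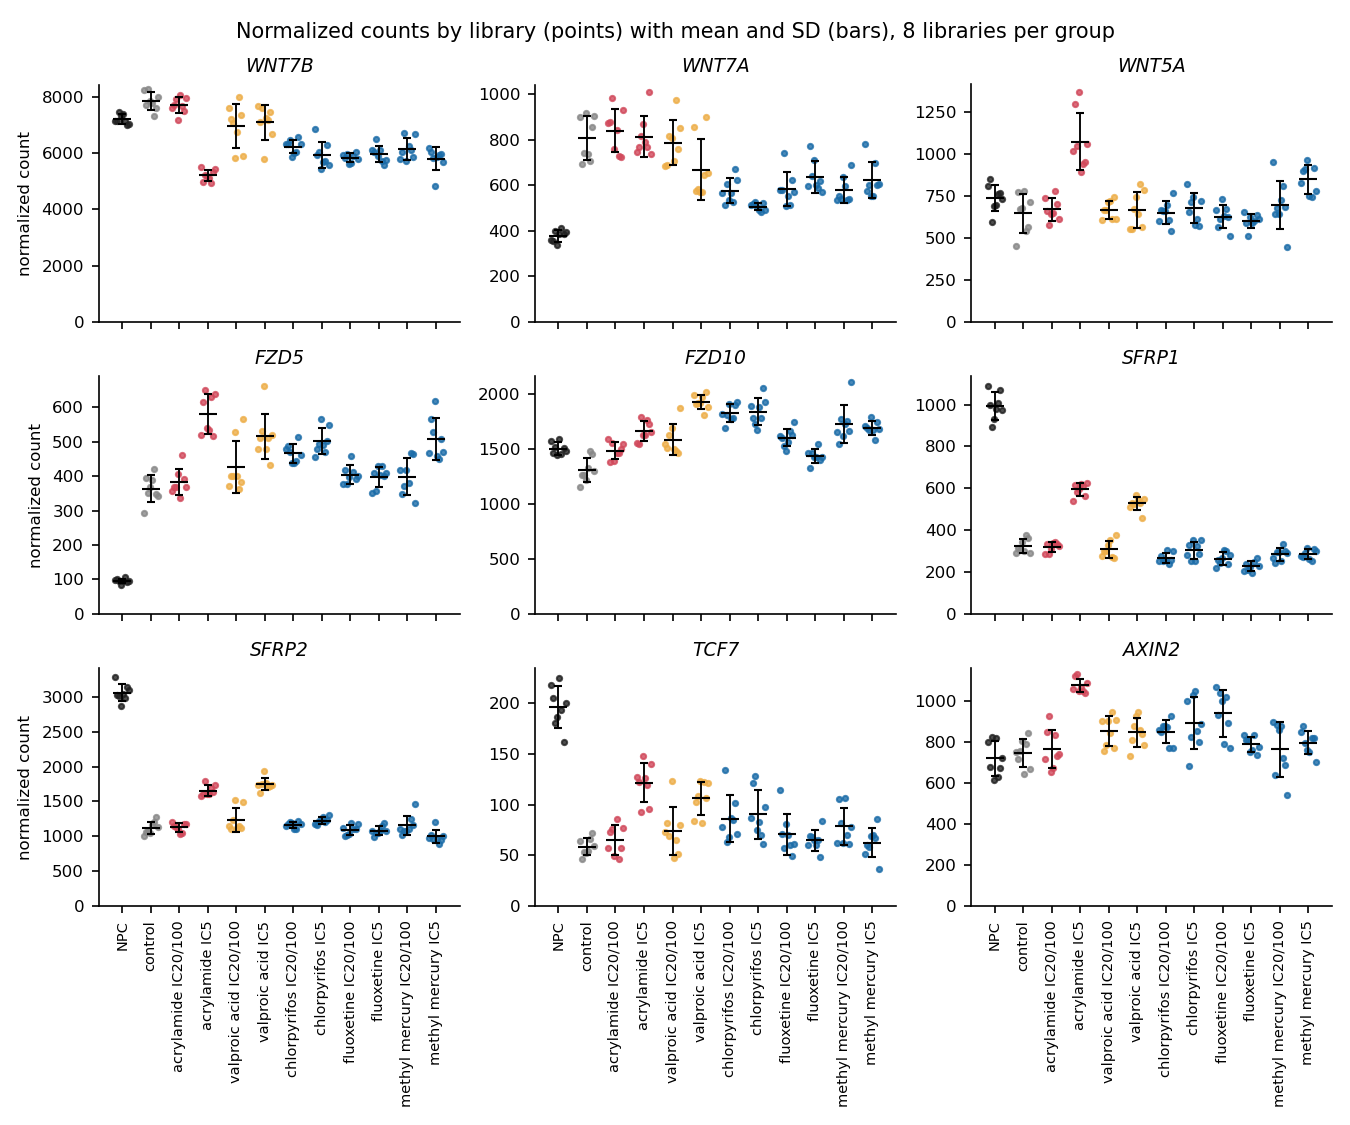
Normalised counts of 9 WNT genes in every library, by group (points, libraries; bars, mean and SD of 8), on linear axes from 0. Red marks acrylamide, yellow valproic acid and blue the compounds in DMSO. In SFRP1, SFRP2 and TCF7 the acrylamide IC5 and valproic acid IC5 libraries lie between the controls and NPC.

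Valproic acid IC5, an inhibitor of histone deacetylases used against epilepsy, raised 13 of 41 members and lowered 7, against 14.5% and 12.4% of all genes. The members' median log2 fold change was 0.15, and 0.00 over all genes. Of 4 tested inhibitors 3 rose, of 13 receptors 4 rose and 2 fell, and of 11 ligands 2 rose and 3 fell. In all alternatives 17 of the 20 calls held, the exceptions being WNT2B, WNT9B and FZD8.

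SFRP1 and SFRP2 rose here too. SFRP1 was at 459 to 569 after valproic acid IC5 (median 531), against 291 to 379 in controls (limma, log2 fold change 0.70 ± 0.06, adjusted p = 5.68e-15), and SFRP2 at 1620 to 1930 (median 1730) against 1000 to 1270 (limma, 0.64 ± 0.05, adjusted p = 1.79e-17). Neither overlapped the controls. TCF7 was at 81.9 to 123 (median 107) against 46.0 to 72.0 (limma, 0.84 ± 0.15, adjusted p = 6.65e-06). FZD10 (chromosome 12, 130162459 to 130165740, plus strand), a receptor of the dorsal neural tube, rose to 1810 to 2020 (median 1920) from 1150 to 1480 (limma, 0.56 ± 0.05, adjusted p = 2.97e-17), and FZD5 to 516 ± 66.3 from 364 ± 38.7 (limma, 0.50 ± 0.07, adjusted p = 4.47e-09). FZD6 rose from 30.7 ± 9.89 to 63.2 ± 16.5, with overlapping libraries (limma, 1.01 ± 0.16, adjusted p = 8.53e-07). RSPO1 rose from a mean of 29.9 to 48.7 without overlap (limma, 0.68 ± 0.12, adjusted p = 7.36e-06).

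RNF43 had the largest log2 fold change of the 41 members here, and its libraries were uneven. It was at 24.9 to 196 after valproic acid IC5 (median 78.4) and 15.9 to 45.8 in controls (median 20.1; limma, 1.61 ± 0.42, adjusted p = 0.00170). Unlike after acrylamide IC5, AXIN2 and NKD1 did not pass, and DKK3 was higher (2600 ± 248, 0.22 ± 0.07). WNT7A and WNT7B were lower by 0.28 and 0.15. Of the other 49 pathway genes, 10 rose and 7 fell, against 14.5% and 12.4% of all genes. GPC3 rose from 630 ± 105 to 2030 ± 94.3 (limma, 1.70 ± 0.08, adjusted p = 2.35e-29), TNFRSF19, a known target of the pathway, from 120 to 239, and APCDD1, an inhibitor at the membrane, from 274 to 443. The inhibitor SOSTDC1 rose from 7.33 to 26.7. Dividing cell markers summed to 16100 to 19900 against 12000 to 16100 in controls, roof plate markers to 879 to 1100 against 740 to 899, and pluripotency markers to 315 to 402 against 218 to 268. Of the 3 pluripotency markers only LIN28A was called. The part of these markers was not tested.

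At valproic acid IC20/100, 2 members rose and 1 fell, against 1.17% and 1.37% of all genes. FZD10 rose by 0.28 on the log2 scale, though not in the fit of the 16 libraries compared (0.27, adjusted p = 0.108 by limma), and WNT7B was lower by 0.18. FZD6 was called at 0.61 (adjusted p = 0.0272 by limma), but not in 7 alternatives (0.51 to 0.61, adjusted p = 0.0533 to 0.239), among them those without control replicate 1, 2 or 4 or valproic acid IC20/100 replicate 2 or 3. The call of WNT7B was lost without valproic acid IC20/100 replicate 4. Comparing IC5 with IC20/100 directly, 10 members were higher and 3 lower at IC5, against 9.73% and 7.27% of all genes. SFRP1 led (528 ± 32.9 at IC5 and a mean of 309 at IC20/100; limma, 0.79 ± 0.06, adjusted p = 1.06e-16), followed by TCF7 (0.56), SFRP2 (0.51), RSPO1 (0.42) and WNT8B (0.31). At IC20/100 neither SFRP1 nor SFRP2 was called against controls.

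For the compounds given in DMSO, effects of vehicle and compound cannot be told apart. The values of 4 genes are set side by side here against the shared controls. WNT7B averaged 5940 ± 459 and 6230 ± 246 after chlorpyrifos IC5 and IC20/100, 5960 ± 291 and 5840 ± 148 after fluoxetine, and 5790 ± 411 and 6140 ± 389 after methyl mercury, with 7840 ± 320 in controls. The highest of these 48 libraries was 6860 and the lowest control 7320, so no library overlapped. The log2 fold changes ranged from -0.44 to -0.33 in these 6 groups, from -0.18 to -0.15 after valproic acid, and were -0.59 and -0.01 after acrylamide IC5 and IC20/100.

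WNT7A gave means of 507 ± 16.4 and 576 ± 54.8 after chlorpyrifos, 638 ± 69.6 and 585 ± 74.1 after fluoxetine and 622 ± 79.5 and 578 ± 57.8 after methyl mercury (IC5 first each time), against 808 ± 96.9. Chlorpyrifos IC5 had the lowest level (485 to 529; limma, log2 fold change -0.66 ± 0.08, adjusted p = 3.19e-10), below every control library, and the fluoxetine libraries and those of methyl mercury IC5 overlapped the controls. FZD10 was higher, at 1840 ± 121 and 1830 ± 83.5 after chlorpyrifos and at means of 1440 to 1730 in the other 4 groups, against 1310 ± 112. Its call after fluoxetine IC5 (0.14, adjusted p = 0.0412) did not hold in every alternative. FZD7, another abundant receptor, was lower by 0.11 to 0.25 in these groups. Its call after chlorpyrifos IC5 was lost in 7 of 26 alternatives, among them those without control replicate 7 or 8 or chlorpyrifos IC5 replicate 2, 4 or 7 (adjusted p = 0.0532 to 0.0737 by limma), and its calls after chlorpyrifos and methyl mercury IC20/100 in the fit of the 16 libraries compared. The direct comparison of IC5 with IC20/100 left all of WNT7B, WNT7A and FZD7 uncalled for each of these 3 compounds.

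**Figure D3:**
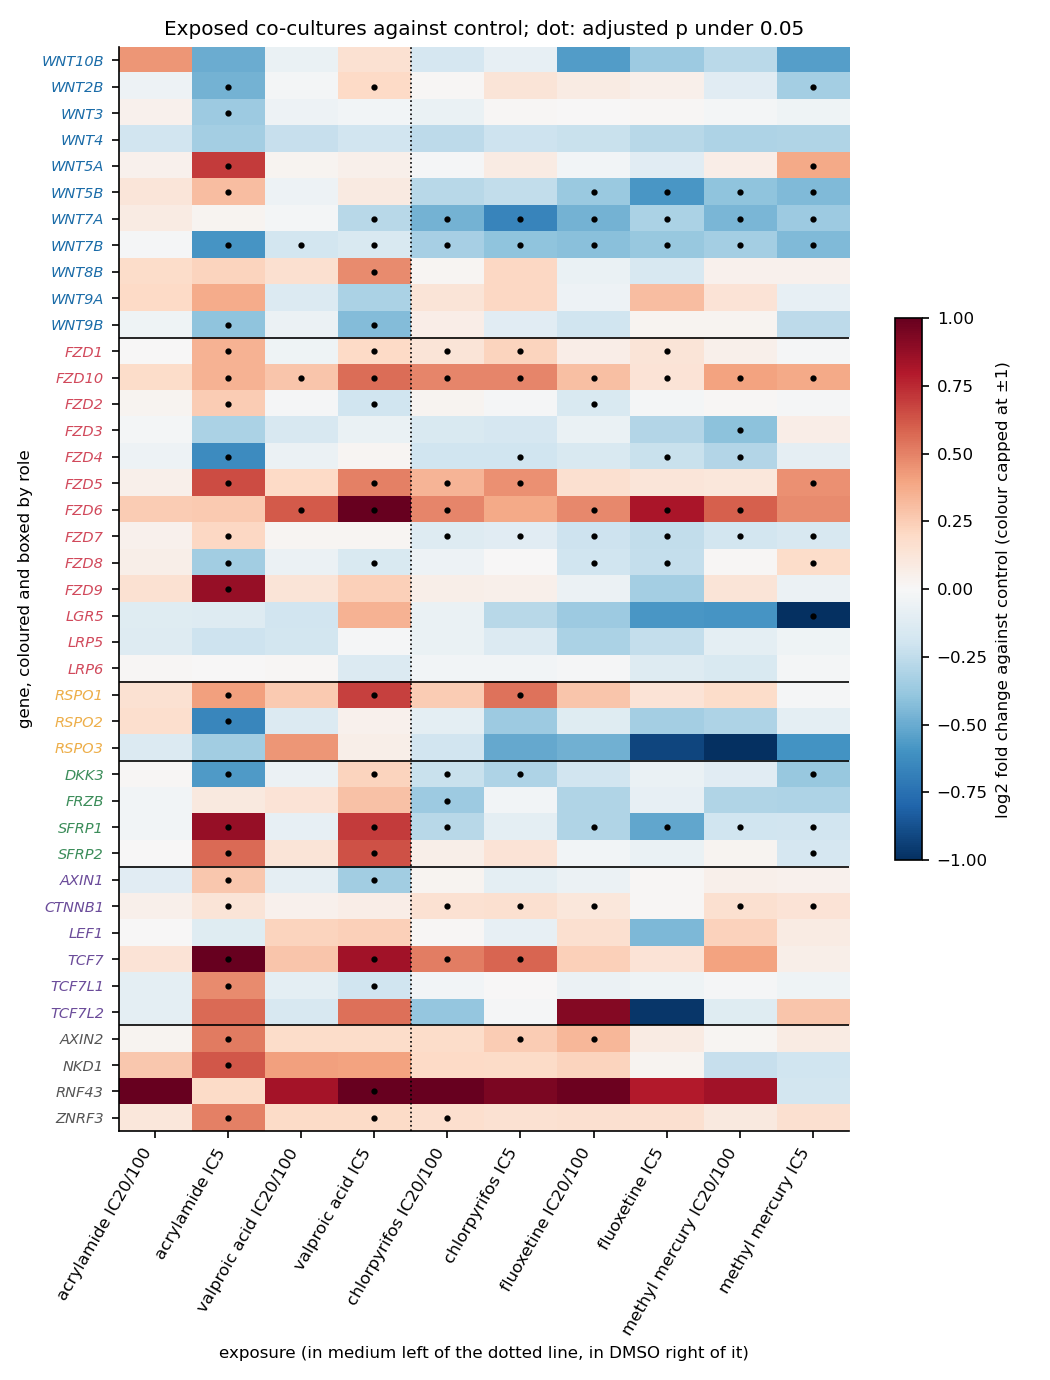
Log2 fold change of the members tested at day 10 (rows, by role) in each exposure against the shared controls (columns), with dots on called values. WNT7B is called and negative at both concentrations of the compounds in DMSO, from -0.44 to -0.33.

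Chlorpyrifos, an organophosphate insecticide, raised 7 and lowered 5 of 41 members at IC5, against 9.92% and 9.75% of all genes, and raised 7 and lowered 6 at IC20/100, against 7.06% and 7.02%. FZD5 was at 457 to 565 and 437 to 513, above all controls (294 to 421; log2 fold changes 0.46 ± 0.07 and 0.34 ± 0.07). TCF7 was at 90.2 ± 23.8 and 86.0 ± 22.9 against 58.4 ± 8.60, with overlap, and its call at IC20/100 (0.51) was lost without chlorpyrifos IC20/100 replicate 2 (0.41, adjusted p = 0.0553 by limma). DKK3 fell by 0.31 at IC5 and RSPO1 rose by 0.54. Of the calls, 9 of 12 at IC5 and 6 of 13 at IC20/100 held in all alternatives, the uncertain ones at IC20/100 being DKK3, TCF7, FZD7, FZD1, FRZB, FZD6 and ZNRF3. Between IC5 and IC20/100 no member was called, 0 of 41 higher or lower by limma, edgeR or DESeq2, against 0.0397% and 0.00993% of all genes by limma. At an unadjusted p under 0.05 in limma, 5 of the 41 members differed, against 1406 of all 20136 genes. Progenitor markers summed to 79700 to 86000 at IC5 against 95100 to 102000 in controls, and dividing cell markers to 16200 to 18200 against 12000 to 16100. Of the progenitor markers VIM, FABP7 and SOX2 were called lower at IC5, and NES higher. The part of these markers was not tested.

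Fluoxetine, a serotonin reuptake inhibitor, raised 3 and lowered 7 members at IC5, against 5.47% and 5.94% of all genes, and raised 4 and lowered 7 at IC20/100, against 6.88% and 7.54%. Of these calls, 6 of 10 at IC5 and 8 of 11 at IC20/100 held in all alternatives. The exceptions were FZD10, FZD1, FZD4 and FZD8 at IC5, and WNT5B, FZD6 and CTNNB1 at IC20/100. SFRP1 was at 197 to 267 (median 227) after IC5, below all controls at 291 to 379 (limma, log2 fold change -0.52 ± 0.06, adjusted p = 1.26e-09), and fell by 0.30 at IC20/100. This is the opposite sign to acrylamide IC5 and valproic acid IC5, whose SFRP1 libraries at 541 to 626 and 459 to 569 shared no value with those of fluoxetine. WNT5B fell to 83.2 to 129 from 124 to 172 (limma, -0.58 ± 0.11, adjusted p = 5.59e-05), and FZD6 was higher, at 54.6 ± 9.91 against 30.7 ± 9.89 (limma, 0.82 ± 0.17, adjusted p = 0.000164). AXIN2 rose at IC20/100 (939 ± 113 against 747 ± 67.2, 0.33 ± 0.07). Between the concentrations 1 member was higher and 3 lower at IC5, against 2.30% and 1.46% of all genes, and none of these 4 calls (FZD2, SFRP1, FZD10, AXIN2) held in all alternatives. AXIN2 was lost when any 1 of the 8 IC5 libraries, or IC20/100 replicate 1, 2, 3, 4 or 6, was left out (adjusted p = 0.0509 to 0.128 by limma). SFRP1 was lost without IC20/100 replicate 5, 6 or 8 or IC5 replicate 1, 3, 4, 5 or 8, FZD10 without IC20/100 replicate 6 or 8 or IC5 replicate 2 or 7, and FZD2 without the run term. All 4 were also lost in the fit of the 16 libraries compared. Progenitor markers summed to 80700 to 89200 at IC20/100 against 95100 to 102000 in controls, and pluripotency markers to 147 to 170 against 218 to 268. There PAX6, VIM, FABP7, SOX2 and HES5 of the progenitor markers were called lower, and HES1 and NES higher. Of the 3 pluripotency markers only LIN28A was called. The 5 neural crest markers summed to 6660 to 7400 at IC5 and 6710 to 7530 at IC20/100, within the control range of 6630 to 7550. Among these 5, FOXD3 was called lower at IC5 and SOX10 at IC20/100, and none was called higher. The part of these markers was not tested.

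Methyl mercury, an organic mercury neurotoxicant, raised 5 and lowered 9 members at IC5, against 4.85% and 6.06% of all genes, and raised 3 and lowered 7 at IC20/100, against 8.21% and 7.60%. LGR5 had the largest log2 fold change at IC5, with libraries at 93.5 to 329 (median 138) against 150 to 451 in controls (median 356; limma, -1.04 ± 0.29, adjusted p = 0.0100). The groups overlapped, and 5 of 6 sequencing runs had the lower mean after exposure. WNT5A was at 747 to 963 (median 864) against 454 to 779 (limma, 0.38 ± 0.09, adjusted p = 0.00293), FZD5 at 449 to 618 against 294 to 421 (limma, 0.46 ± 0.07, adjusted p = 2.91e-07), and DKK3 fell by 0.38. WNT5B fell by 0.44 and 0.40 at the 2 concentrations. SFRP1 was called lower at both (-0.19 and -0.20), but not in every alternative. At IC20/100 only 3 of the 10 calls remained in a fit of the 16 libraries compared. FZD3 was called there (log2 fold change -0.41, adjusted p = 0.0471 by limma) but in only 9 of 25 alternatives, and not without IC20/100 replicate 8, the library that stood apart (-0.30, adjusted p = 0.176), nor without control replicate 1, 2, 4, 5 or 7 or IC20/100 replicate 2, 4, 6 or 7 (-0.42 to -0.35, adjusted p = 0.0548 to 0.116).

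Between methyl mercury IC5 and IC20/100, 3 members were higher and 2 lower at IC5, against 2.58% and 2.60% of all genes. They were FZD3, FZD5 and WNT5A, and DKK3 and SFRP2, and none held in all alternatives. Without IC20/100 replicate 8, FZD3 (0.37, adjusted p = 0.154 by limma), WNT5A (0.22, adjusted p = 0.168) and SFRP2 (-0.15, adjusted p = 0.0679) were not called. FZD3 and WNT5A were also lost without IC20/100 replicate 4 or without IC5 replicate 3, 4 or 7, FZD3 without IC20/100 replicate 2 or 6 or IC5 replicate 8, and WNT5A without IC20/100 replicate 7. DKK3 and FZD5 were lost in the fit of the 16 libraries compared. CCND1 fell from 3700 to 2440 at IC5 (limma, -0.61 ± 0.08, adjusted p = 8.86e-09). NKD2, at 96.6 in controls, was at 61.9 after methyl mercury IC20/100, 58.1 after chlorpyrifos IC5 and 56.2 after fluoxetine IC5, called lower each time. Neuronal markers summed to 80300 to 88300 after methyl mercury IC5 against 90300 to 97100, the 5 neural crest markers to 4990 to 6040 against 6630 to 7550, and roof plate markers to 540 to 654 against 740 to 899. Of the roof plate markers only LMX1A was called at IC5, and lower. Progenitor markers ran from 84700 to 143000 at IC20/100, with a median of 90900, against 95100 to 102000 in controls. The part of all these markers was not tested.

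The genes differed in how evenly replicate libraries agreed. Pooled over the 12 groups, the within-group coefficient of variation was 4.93% for CTNNB1, 5.37% for FZD7, 5.76% for TCF7L1 and 6.10% for WNT7B. Over the 12517 genes with a mean of at least 100 the median was 12.3%, and over the 28 members among them 9.93%. TCF7L2 (chromosome 10, 112950250 to 113167678, plus strand), the main TCF factor of intestine and brain, reached 71.0%. Only 1.53% of those genes varied more. Its control libraries, replicates 1 to 8, were at 2590, 271, 3110, 1040, 1970, 317, 345 and 2450, and NPC libraries ran from 394 to 3510.

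TCF7L2 values under 600 occurred in 31 of the 96 libraries, in every group but fluoxetine IC20/100 and in every sequencing run. Per run of 16 libraries there were 1, 7, 5, 9, 3 and 6 of them, and run medians were 1920, 1510, 1650, 415, 1710 and 856. Within a group the highest library was 2.07 to 17.4 times the lowest. No comparison called TCF7L2. The standard error of its log2 fold change was 0.56 to 0.60 in the 16 comparisons, and the difference nearest to a call was -1.90 between fluoxetine IC5 and IC20/100 (limma, adjusted p = 0.0545). Whether the spread lies in the cultures or in the counting was not tested. RNF43 (71.4%), LGR5 (43.2%), WNT4 (33.2%), RSPO2 (33.1%), LEF1 (31.6%) and NKD1 (25.1%) were also uneven. FZD6 (23.1%), WNT9A (22.9%), WNT9B (22.8%), TCF7 (22.2%), LRP5 (22.0%) and FZD3 (20.3%) followed. TCF7L2, AXIN2, FZD10, CTNNB1 and WNT3 were described after their values were seen. Of the members measured at day 10, no exposure called WNT4, WNT9A, WNT10B, LRP5, LRP6, RSPO3, LEF1 or TCF7L2 against the controls.

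**Figure D4:**
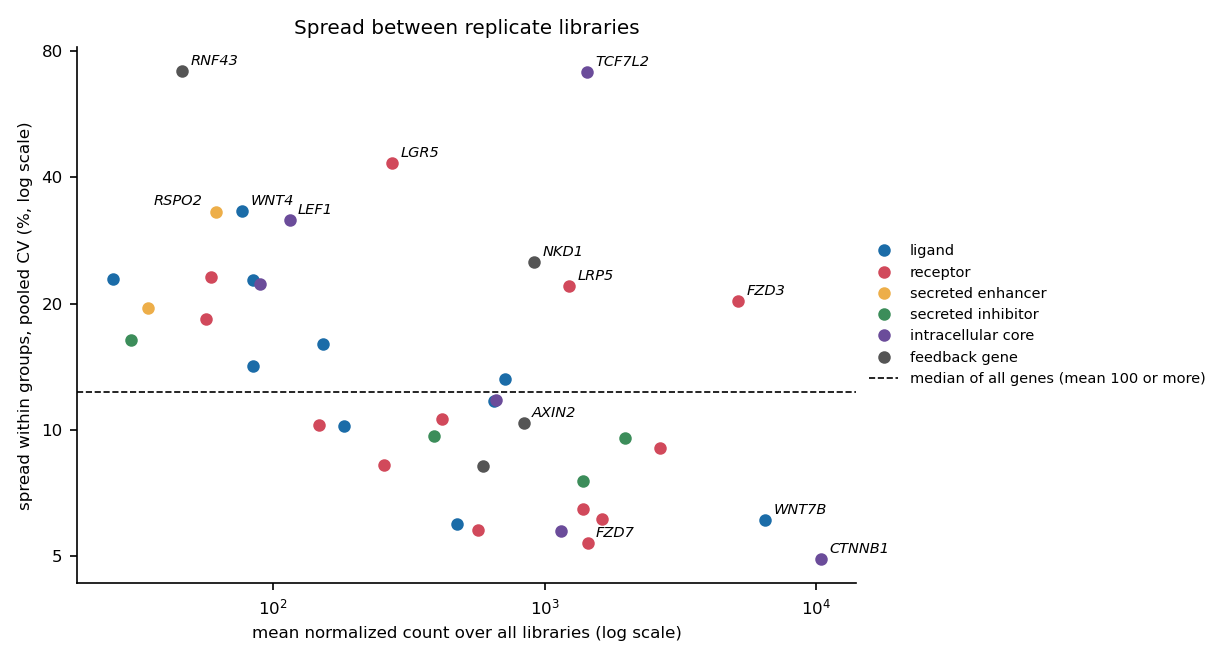
Pooled within-group coefficient of variation (%, log axis) of each member measured in both fits against its mean normalised count over all libraries (log axis), coloured by role. TCF7L2 lies at 71.0% and CTNNB1 at 4.93%, and the dashed line is the median of all genes with a mean of at least 100, 12.3%.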

How the data were processed

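Polyadenylated RNA of 96 libraries was sequenced. Per the submitters' processing notes, the tools were bcl2fastq, FastQC 0.11.8, MultiQC 1.0, Salmon 1.3.0 and DESeq2 1.30.0, with GRCh38. The deposited signal is a table of gene counts divided by 1 size factor per library, and whole reads were recovered from every column (100% of values whole within 0.001 read). No pair of the 336 replicate pairs differed by as little as counting error.

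Main tests used limma 3.58.1 (R 4.3.3, trended prior) on log2(value + 2), for genes that reached 10 in 8 or more libraries of the fit, with group and sequencing run as terms. NPC and controls were fitted alone (16 libraries, 18063 genes). The 88 day 10 libraries shared 1 fit (20136 genes), and 16 comparisons were made. Alternatives were pseudocounts 1 and 8, no filter, TMM scaling, no run term, a replicate block, edgeR 4.0.16 and DESeq2 1.42.0 on recovered reads, only the libraries compared, and each library left out in turn. The fitting was tested on simulated data.

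Members, gene lists and tests were chosen with earlier results of these data known. Members with a mean of at least 50 in some group and a call of at least 1.5-fold were described in full, and the others by counts and ranges, except where stated. Positions are from GENCODE 29, with the authors' own release not given in the sources used here. Neural crest markers are summed over 5 of the 6 listed genes, because 1 is not reported here.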

Additional observations from a re-analysis of the deposited data

Results flagged for a closer look

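Of 241 groups of 8 libraries examined for the 21 genes described in full, 19 held a library far from the other 7 of its group, where chance flags about 1 in 20 groups. Ranges given are those of the other 7 libraries. WNT4 was at 149 in chlorpyrifos IC20/100 replicate 7 (52.2 to 95.4) and at 122 in valproic acid IC5 replicate 2 (68.2 to 82.4). WNT5A was at 510 in fluoxetine IC5 replicate 3 (588 to 653). WNT7B was at 4840 in methyl mercury IC5 replicate 4 (5690 to 6190). WNT9B was at 143 in acrylamide IC5 replicate 4 (53.4 to 75.7).

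FZD1 was at 563 in valproic acid IC20/100 replicate 8 (419 to 470), FZD4 at 138 in valproic acid IC20/100 replicate 6 (157 to 170), and FZD5 at 661 in valproic acid IC5 replicate 4 (434 to 532). LGR5 was at 630 in acrylamide IC20/100 replicate 3 (200 to 387), 557 in chlorpyrifos IC5 replicate 2 (161 to 308) and 329 in methyl mercury IC5 replicate 1 (93.5 to 184). RSPO2 was at 140 in valproic acid IC5 replicate 1 (55.2 to 83.3).

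FRZB was at 11.8 in chlorpyrifos IC20/100 replicate 2 (20.7 to 28.0). SFRP2 was at 1210 in methyl mercury IC5 replicate 4 (886 to 1020) and at 1930 in valproic acid IC5 replicate 4 (1620 to 1760). TCF7 was at 123 in valproic acid IC20/100 replicate 4 (47.1 to 81.8). RNF43 was at 45.8 in control replicate 3 (15.9 to 27.2), 202 in fluoxetine IC20/100 replicate 5 (25.6 to 81.7) and 66.5 in methyl mercury IC5 replicate 4 (12.8 to 25.3). Methyl mercury IC5 replicate 4 was the only library far from its group in 3 of these genes.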

How the results depend on the processing

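Of 412 alternative values of the 16 counts of called members, 393 stayed within 1.5 times the main count. No called member reversed its direction under any alternative: of 4910 values for 192 called results, 4603 stayed called and 307 did not, and 142 results were always called. Among the 45 results of at least 1.5-fold, 11 of 1126 values were not called, in 3 results. With only the 16 libraries compared in the fit, methyl mercury IC20/100 against control gave 3 calls (10 in the main analysis) and valproic acid IC20/100 against control 0 (main 3). In such fits fluoxetine IC5 against IC20/100 gave 1 call (main 4), of a member outside those 4, and methyl mercury IC5 against IC20/100 gave 0 (main 5). The last 2 comparisons gave 1 and 3 calls without a filter, and 1 and 3 without the run term. Leaving out 1 library gave 1 to 6 calls for fluoxetine IC5 against IC20/100, 3 to 6 for methyl mercury IC5 against IC20/100, and 0 to 1 for acrylamide IC20/100 against control, the 1 arising without methyl mercury IC20/100 replicate 8. Apart from the smaller fits, which have fewer samples, the cause was not tested.

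Replicate numbers did not pair the libraries. Correlations of same-numbered deviations were at most 0.122, and no comparison had more than 2 of 8 pairs over 0.1. With the replicate block, 30 members were called in controls against NPC (29 without it), 26 after acrylamide IC5 (26 without) and 23 after valproic acid IC5 (20 without), and no count moved by over 1.5 times.

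Genes under about 10 normalised counts, such as WNT10B, and genes with uneven replicates, such as TCF7L2 and RNF43, are measured least precisely.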
